A study of Sus scrofa with 12 samples.

Results

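The genes described here belong to families that make, sense and remove cyclic AMP (cAMP). They were chosen by symbol, as all RefSeq mRNA genes of the pig genome named as an adenylyl cyclase (ADCY), a cyclic nucleotide phosphodiesterase (PDE), a protein kinase A (PKA) catalytic or regulatory subunit (PRKAC, PRKAR) or an A-kinase anchoring protein (AKAP). The rule gave 57 genes of 20678, namely 10 adenylyl cyclases, 24 phosphodiesterases, 6 PKA subunits and 17 anchoring proteins. The phosphodiesterases include enzymes of cyclic GMP (cGMP), such as PDE5A, and subunits without enzyme activity, such as PDE6H.

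In sperm, cAMP is made mainly by the soluble cyclase ADCY10, which bicarbonate and calcium switch on, and it drives the start of flagellar beating and capacitation. cAMP binds the regulatory subunits of PKA and frees the catalytic subunits. AKAPs tie the kinase to places such as the fibrous sheath of the tail, and phosphodiesterases break cAMP and cGMP down. N6-methyladenosine (m6A) is a methyl mark on adenosines of mRNA. Mature sperm hold mRNA made earlier in germ cell development and make almost none themselves.

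The study asked how freezing and thawing alter m6A in sperm mRNA of 3 mature Duroc boars. Each boar gave 5 ejaculates, 15 in all, and each was split into fresh sperm (Fs), put into liquid nitrogen at once for RNA, and frozen-thawed sperm (Fts). The Fts part was cooled to 17 °C, spun down, taken up in lactose and egg yolk, held at 4 °C, mixed with extender of 6% glycerol, frozen in straws and thawed. All Fs and Fts sperm were washed and treated with a detergent against somatic cells before RNA extraction, and the labels name no other treatment, allele or batch. MeRIP-seq, in which an m6A antibody pulls down (IP) RNA fragments of about 100 nt, was run on 3 Fs and 3 Fts samples, each with an input library, and peaks were called in each IP sample separately. The labels number the samples from 1 to 3 in each group but do not tie the numbers to boars, nor do they say whether ejaculates were pooled, so the spread between samples may be in part technical.

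The peak lists of the Fs samples held 8015, 10378 and 10335 peaks and those of the Fts samples 9682, 11510 and 11982. Read depth and mRNA levels are not in these lists. Hence fewer cells with a transcript, less of it per cell and less m6A on it cannot be told apart here. No 2 lists were the same. Of the distinct peaks of 2 samples together, 18.0% to 21.2% had identical coordinates within a group. Between an Fs and an Fts sample it was 7.03% to 7.95%. Of 20 marker genes of sperm and late germ cells, 4 to 8 had a peak in a sample, against 1 to 3 of 8 leukocyte, 0 to 3 of 6 epithelial and 2 to 3 of 5 fibroblast and muscle markers. A peak was present in all 6 samples for SPACA1, a sperm acrosome protein, and DNAH1, a dynein of the sperm tail. The same held for DES, of the fibroblast and muscle markers. Sperm markers with a peak in no sample included PRM1, TNP1, ODF1 and AKAP4. Some markers moved with the groups. KRT8, a keratin of simple epithelia, had no peak in Fs and 3, 4 and 2 in Fts, COL1A2, a chain of type I collagen, had none against 3, 1 and 1, while its partner chain COL1A1 had 2, 1 and 2 against 0, 0 and 1, and VIM, the filament of mesenchymal cells, had 1 in each Fs sample and none in Fts. Of the sperm markers, ACR, the acrosomal protease, had 2 peaks in each Fs sample and none in Fts, and ZPBP, another acrosomal protein, none in Fs and 1, 2 and 2 in Fts. PTPRC, which defines leukocytes, had 0, 2 and 0 peaks in Fs and 0, 0 and 1 in Fts, and the epithelial EPCAM had none. The epithelial KRT18 had 0, 0 and 1 in Fs and 2, 1 and 1 in Fts. The leukocyte marker CD68 had 0, 0 and 1 against 0, 1 and 1. Peak presence is no measure of cell content, and the part of other cells in the results below was not tested.

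Most peaks that the groups did not share, and most that all samples shared, lay on coding exons. The exons below are those the text turns on, read 5′ to 3′ on the mRNA strand from Sscrofa11.1, with the coding part only and GGACT, a common form of the m6A motif, in capitals. In the ADCY10 exon 6 line, the capitals instead mark the 41 bases covered in every sample with a peak there.
PRKAR1B exon 2, chr3:417278-417454, minus strand: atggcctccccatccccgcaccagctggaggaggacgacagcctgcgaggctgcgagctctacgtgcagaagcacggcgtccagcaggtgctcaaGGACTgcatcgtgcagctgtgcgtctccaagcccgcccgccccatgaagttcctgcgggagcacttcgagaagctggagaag
PRKAR1B exon 4, chr3:403295-403386, minus strand: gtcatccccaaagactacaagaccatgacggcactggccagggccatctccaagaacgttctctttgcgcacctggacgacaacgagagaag
PRKAR1A exon 4, chr12:11671494-11671585, minus strand: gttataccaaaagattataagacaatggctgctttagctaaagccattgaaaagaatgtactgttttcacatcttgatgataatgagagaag
ADCY8 exon 3, chr4:9725355-9725485, plus strand: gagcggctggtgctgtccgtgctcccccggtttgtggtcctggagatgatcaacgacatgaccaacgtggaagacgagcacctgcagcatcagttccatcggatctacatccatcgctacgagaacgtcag
ADCY10 exon 6, chr4:83113087-83113183, plus strand: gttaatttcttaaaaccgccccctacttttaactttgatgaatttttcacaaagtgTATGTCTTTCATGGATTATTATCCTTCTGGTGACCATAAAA
ADCY10 exon 11, chr4:83127761-83127950, plus strand: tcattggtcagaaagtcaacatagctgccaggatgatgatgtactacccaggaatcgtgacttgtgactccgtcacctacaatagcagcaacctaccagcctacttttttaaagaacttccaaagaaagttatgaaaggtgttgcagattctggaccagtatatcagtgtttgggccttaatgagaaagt
ADCY10 exon 22, chr4:83166709-83166940, plus strand: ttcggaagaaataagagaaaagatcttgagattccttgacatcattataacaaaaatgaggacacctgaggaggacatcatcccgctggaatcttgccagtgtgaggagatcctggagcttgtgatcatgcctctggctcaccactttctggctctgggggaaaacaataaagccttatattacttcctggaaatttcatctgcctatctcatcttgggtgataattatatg
PDE8B exon 13, chr2:86304861-86304937, plus strand: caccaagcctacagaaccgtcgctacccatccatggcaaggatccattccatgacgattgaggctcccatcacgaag
AKAP9 exon 9, chr9:71950987-71951200, plus strand: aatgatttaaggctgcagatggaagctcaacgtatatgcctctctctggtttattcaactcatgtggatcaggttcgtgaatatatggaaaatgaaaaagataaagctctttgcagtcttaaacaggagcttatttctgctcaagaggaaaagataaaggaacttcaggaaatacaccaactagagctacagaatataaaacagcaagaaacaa
AKAP3 exon 3, chr5:65797376-65797471, plus strand: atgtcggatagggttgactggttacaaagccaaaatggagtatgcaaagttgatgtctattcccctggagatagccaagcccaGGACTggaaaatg

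The cAMP and PKA genes carried more peaks in Fts than in Fs. They held 25, 40 and 36 peaks in samples Fs 1 to Fs 3, and 43, 51 and 59 in Fts 1 to Fts 3 (all triplets below follow this order), a mean of 33.7 ± 7.77 (SD, n = 3) and 51.0 ± 8. These are sums over genes, in which peaks on exons that AKAP8 and AKAP8L share, 1 in Fts 2 and 2 in Fts 3, count for both genes. Each peak taken once, Fts 2 had 50 and Fts 3 had 57, and the other samples were the same. Every Fts sample lay above every Fs sample, and the mean difference over the 3 pairs of equal number was 17.3 ± 6.03 peaks. Per 1000 peaks of its list, a sample had 3.49 ± 0.368 peaks on these genes in Fs and 4.6 ± 0.282 in Fts (4.51 ± 0.216 with each peak taken once), again without overlap. No p was computed for these sums, since the genes were not chosen blind to earlier results. When only peaks with a score of at least 50 were counted, the totals were 5, 5 and 4 in Fs and 6, 10 and 7 in Fts. The score is the MACS value of a peak, 10 times -log10 of its p-value, so 50 stands for a p of 1e-05. Such peaks made up 14.5% ± 4.78 of the member peaks in Fs and 15.1% ± 4.01 in Fts, against 16.5% ± 1.5 and 23.6% ± 3.55 of all peaks on mRNA exons.

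The number of genes with a peak differed less. It was 20, 27 and 27 of 57 in Fs and 24, 27 and 32 in Fts, and the groups overlapped (24.7 ± 4.04 and 27.7 ± 4.04). Over all samples 45 of the 57 genes (78.9%) had a peak at least in a single sample, against 56.6% of all 20678 genes. The 57 genes have long mRNAs, with a median of 5400 nt of exon against 2988 nt for all genes. Per 10 kb of exon, they had 0.796 ± 0.184 peaks in Fs and 1.21 ± 0.189 in Fts, and all genes had 0.988 ± 0.137 and 1.2 ± 0.145. The members thus lay below the mean of all genes in Fs and close to it in Fts by this measure, and neither difference was tested.

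Most member peaks had low scores. Their median score was 9.69 ± 0.831 in Fs and 12.2 ± 2.98 in Fts, and that of all peaks on mRNA exons 11.3 ± 0.596 and 14.2 ± 1.68. A score below 13 means a p-value above 0.05, and 58.6% ± 6.06 of the member peaks in Fs and 53.9% ± 6.71 in Fts fell there.

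**Figure D1:**
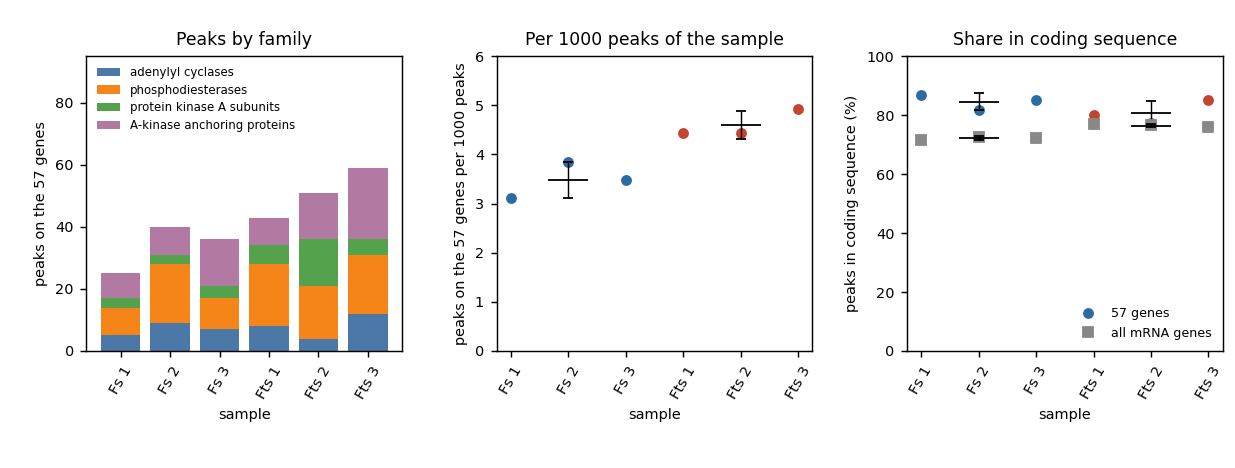
Left, stacked bars give the number of m6A peaks on the 57 genes by family in each sample, summed over genes. Middle, the same total per 1000 peaks of the sample, and right, the percent of placed peaks that lie in coding sequence, for the 57 genes (circles) and all mRNA genes (squares), where points are samples (blue Fs, red Fts) and black lines show mean and SD of 3 samples. The Fts totals of 43 to 59 lie above the Fs totals of 25 to 40.

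By family, the PKA subunits had 3.33 ± 0.577 peaks in Fs and 8.67 ± 5.51 in Fts. The counts were 3, 3 and 4 in Fs and 6, 15 and 5 in Fts, so Fts 2 held more peaks than both other Fts samples together. Phosphodiesterases had 12.7 ± 5.51 peaks in Fs and 18.7 ± 1.53 in Fts, and anchoring proteins 10.7 ± 3.79 and 15.7 ± 7.02. Adenylyl cyclases had 7 ± 2 and 8 ± 4. With all peaks counted, only the PKA subunits had groups that did not overlap. Phosphodiesterases had 9, 19 and 10 against 20, 17 and 19. Anchoring proteins had 8, 9 and 15 against 9, 15 and 23, or 9, 14 and 21 with each peak taken once. For the PKA subunits the separation was lost when peaks that meet at an exon junction were joined, with 3, 3 and 4 against 4, 11 and 5. It was also lost when peaks scoring below 20 were left out, with 2, 1 and 1 against 2, 5 and 2. Among peaks scoring at least 20, the phosphodiesterases were the family without overlap, with 3, 3 and 4 against 5, 6 and 5. Peaks of all genes were not counted at that score. Of all peaks on mRNA exons, 16.5% ± 1.5 in Fs and 23.6% ± 3.55 in Fts scored at least 50, also without overlap. At a score of at least 50 every family overlapped.

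In 25 of the 57 genes the mean number of peaks was higher in Fts (43.9%) and in 14 it was higher in Fs (24.6%). Over all genes the shares were 25.3% and 24.4%. Genes without a peak, 12 of the 57 and 8973 of all 20678, are in these totals and can be higher in neither group. The shares are thus not like for like, and their difference was not tested. A stricter rule asked for the same direction in every Fs and Fts pair of equal number, 3 pairs in all. It named 5 genes with more peaks in Fts (8.77% of 57), ADCY8, AKAP13, PDE10A, PDE4D and PRKAR1B. Of all genes 6.10% met it, so this share is near the background. More peaks in Fs in all 3 pairs were found for AKAP3 alone, 1.75% of the genes, with a background of 3.88%. Without the pairs, the groups did not overlap for ADCY8, PDE10A and PRKAR1B, all with more peaks in Fts (5.26%, background 5.08%), and for no gene with more in Fs (background 3.03%). The rule depended on weak peaks. When peaks scoring below 20 were left out, it named ADCY8, AKAP13, PDE8B and PRKAR1B with more in Fts (3.72% of all genes) and PDE6C with more in Fs (1.52%), so that PDE10A, PDE4D and AKAP3 no longer met it, and at 50 it named PRKAR1B only (2.35% of all genes in Fts and 0.948% in Fs). The smallest two-sided p that these samples allow for a gene is 0.25 by an exact sign-flip test over 3 pairs and 0.1 by an exact permutation test of 3 against 3, so no gene could pass 0.05.

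**Figure D2:**
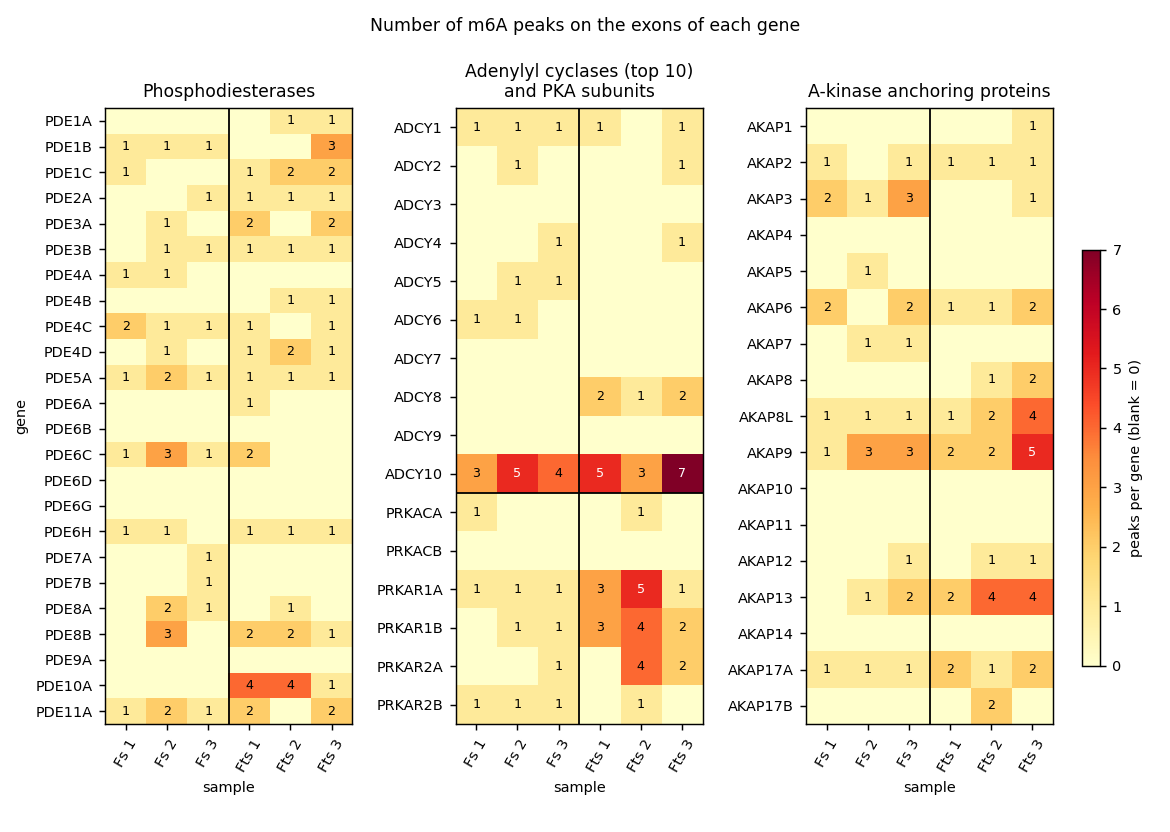
Each cell gives the number of m6A peaks on the exons of a gene (rows) in a sample (columns), blank for 0, with the Fs samples left and the Fts samples right of the black line. ADCY10 has the highest count, 7 in Fts 3, and ADCY8 and PDE10A are blank in the 3 Fs samples.

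Peaks of the 6 lists that overlapped were merged, which gave 128 regions on these genes. A region occurred in a single sample in 64 cases, and in 2, 3, 4, 5 and 6 samples in 34, 13, 9, 4 and 4 cases. Regions in all 3 Fts and no Fs sample numbered 7 (5.47%, with 6.82% of the 26095 regions of all mRNA genes). They lay in ADCY8, ADCY10, AKAP8L, PDE8B and PRKAR1B, with 1 each, and in AKAP13 with 2. A single region, in ADCY10, occurred in all 3 Fs and no Fts sample (0.781%, background 3.63%). The 4 regions in all 6 samples (3.12%, background 3.31%) lay in AKAP9, AKAP17A, PDE5A and PRKAR1A.

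**Figure D3:**
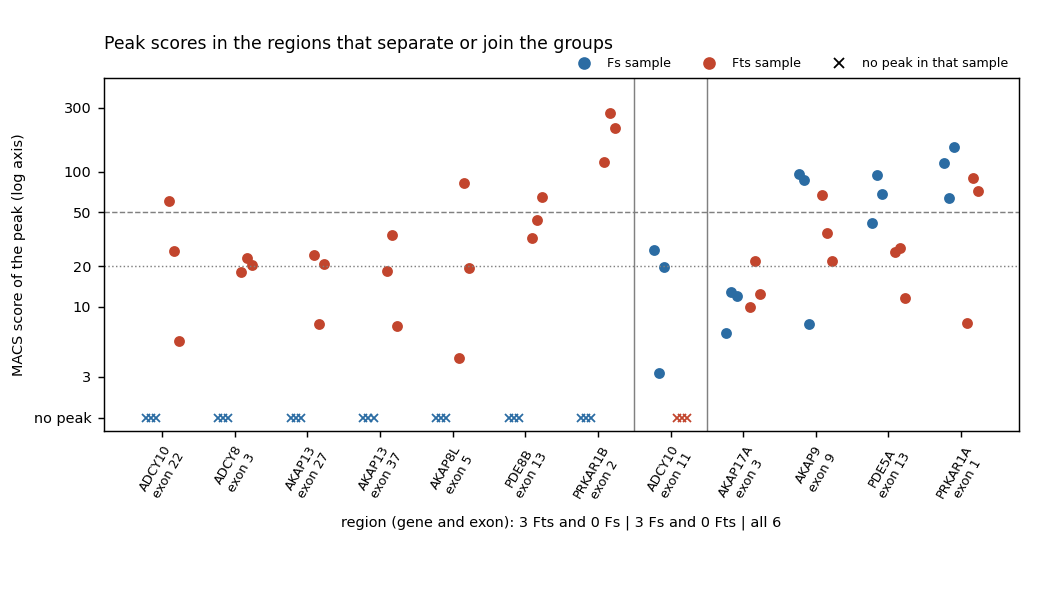
Points give the MACS score (log axis) of the peak in each Fs (blue) and Fts (red) sample for the 12 regions found in 3 samples of a group and none of the other, or in all 6, and crosses mark samples with no peak. Dotted and dashed lines mark scores of 20 and 50. PRKAR1B exon 2 has the highest Fts scores, 118 to 274, and the Fs scores at PDE5A exon 13 all lie above the Fts scores.

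ADCY10, the soluble adenylyl cyclase, lies on chromosome 4 from 83103768 to 83205015 and had the most peaks of the family. Its count was 3, 5 and 4 in Fs and 5, 3 and 7 in Fts. The groups overlapped, with a difference of 1 ± 2.65 peaks (two-sided exact sign-flip test, p = 0.75). All 9 of its regions lay in the coding sequence, with 1 exon in the 3 Fs samples alone and 1 in the 3 Fts samples alone.
Exon 11 of 32 had scores of 26.2, 3.23 and 19.8 in Fs and no peak in Fts. Exon 22 had no peak in Fs and scores of 61.2, 26.0 and 5.51 in Fts. The next exon but one, exon 24, had a score of 23.4 in Fs 2 and of 5.01, 44.0 and 6.66 in Fts.
The strongest region was exon 6. It scored 7.73, 169 and 75.4 in Fs, 317 in Fts 1 and 136 in Fts 3, and had no peak in Fts 2. In the 3 Fs samples the peak covered the last 41 bases of the exon, shown above in capitals, and in Fts 1 and Fts 3 all 97 bases. The exon before it, exon 5, had a peak over its whole 206 bases in Fts 1 and Fts 3, with scores of 6.44 and 4.52, and over its last 79 bases in Fs 2, with 30.2. Of the other regions, exon 16 scored 12.2 in Fts 1 and 45 in Fts 3 and had no peak in Fs, and exon 31 scored 9.96, 24.3 and 21.8 in Fs and 33.3 in Fts 3 only. Peaks that meet at an exon junction can stand for 1 stretch of mRNA, and after joining them ADCY10 had 3, 5 and 4 peaks in Fs and 4, 3 and 5 in Fts.

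ADCY8, a transmembrane cyclase stimulated by calcium and calmodulin, had no peak in Fs and 2, 1 and 2 in Fts. The groups did not overlap (difference 1.67 ± 0.577, two-sided exact sign-flip test, p = 0.25, and exact permutation test, p = 0.1). Exon 3 of 18 held a peak in all Fts samples with scores of 17.9, 22.9 and 20.2, and exon 11 in Fts 1 and Fts 3 with 43.0 and 49.8. The exon 3 peaks began at the same base but covered 26, 102 and 131 bases. No ADCY8 peak reached a score of 50.

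Of the PKA regulatory subunits, PRKAR1B (RIβ, known best from the brain) was the gene whose groups did not overlap. It lies on chromosome 3 from 343124 to 425154, minus strand. It had 0, 1 and 1 peaks in Fs and 3, 4 and 2 in Fts, with no value shared. The difference was 2.33 ± 1.15 (two-sided exact sign-flip test, p = 0.25, and exact permutation test, p = 0.1).
A peak of 267 bp at chr3:417278-417544 had the same ends in the 3 Fts samples and scores of 118, 274 and 211, and there was no peak in Fs. It covered the whole of exon 2 of the longest coding transcript, 203 bp with the start codon, of which the coding 177 bases are printed above. The 274 of Fts 2 was the highest score in any member region found in 1 group only. In Fts 1 and Fts 2 further peaks covered exon 3 (171 bp, scores 15.4 and 11.0) and exon 4 (92 bp, 6.97 and 19.7). When such runs were counted as 1 peak, PRKAR1B had 0, 1 and 1 peaks in Fs and 1, 2 and 2 in Fts. Exon 9 had a peak in both groups, with scores of 5.92 and 4.29 in Fs 2 and Fs 3 and of 3.85 and 14.4 in Fts 2 and Fts 3. PRKAR1B was the only member with more peaks in Fts in all 3 pairs among peaks of a score of at least 50, with 0, 0 and 0 against 1, 1 and 1.

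PRKAR1A (RIα, the widely expressed regulatory subunit) had 1, 1 and 1 peaks in Fs and 3, 5 and 1 in Fts (difference 2 ± 2, two-sided exact sign-flip test, p = 0.5). Its constant peak lay in the 5'UTR on exon 1, chr12:11680925-11681435, in all 6 samples. The scores there were 117, 63.6 and 154 in Fs and 7.59, 90.7 and 71.5 in Fts, and they overlapped. The other peaks were in Fts 1 and Fts 2 alone. Exon 4 scored 38.0 and 142 there. Exon 2, which holds the start codon, was covered whole with scores of 12.3 and 15.5 by peaks of 379 and 369 bp that ran past it. In Fts 2, exon 3 scored 5.54 and exon 6 scored 81.0. Fts 1 and Fts 2 thus both had peaks on exons 2 and 4 of PRKAR1A and of PRKAR1B.
The paralogs are alike in sequence. Between exons of the same number and equal length, 63.2% of the 171 bases were identical in exon 3, 69.6% of 92 in exon 4, 78.7% of 47 in exon 6 and 80.3% of 122 in exon 9. The longest identical run was 8 bases in exons 3, 4 and 6 and 13 in exon 9. Exon 2 differs in length between the genes and was not compared, and the part of reads placed on the wrong paralog was not tested.

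PRKAR2A (RIIα, which AKAPs of the sperm tail bind) had 0, 0 and 1 peaks in Fs and 0, 4 and 2 in Fts. The scores were low, at most 22.4, in Fts 2 on exon 3, and the groups overlapped. PRKACA, the catalytic subunit with a sperm-specific form, had a peak in Fs 1 with a score of 74.6 and in Fts 2 with 9.39. Together they made a region of 597 bp, of which 262 bp lay on exon 1, from nt 1 to nt 262 of the transcript. The coding sequence begins at nt 217, so the peak covered the 5'UTR there and the start codon. PRKACB had no peak.

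**Figure D4:**
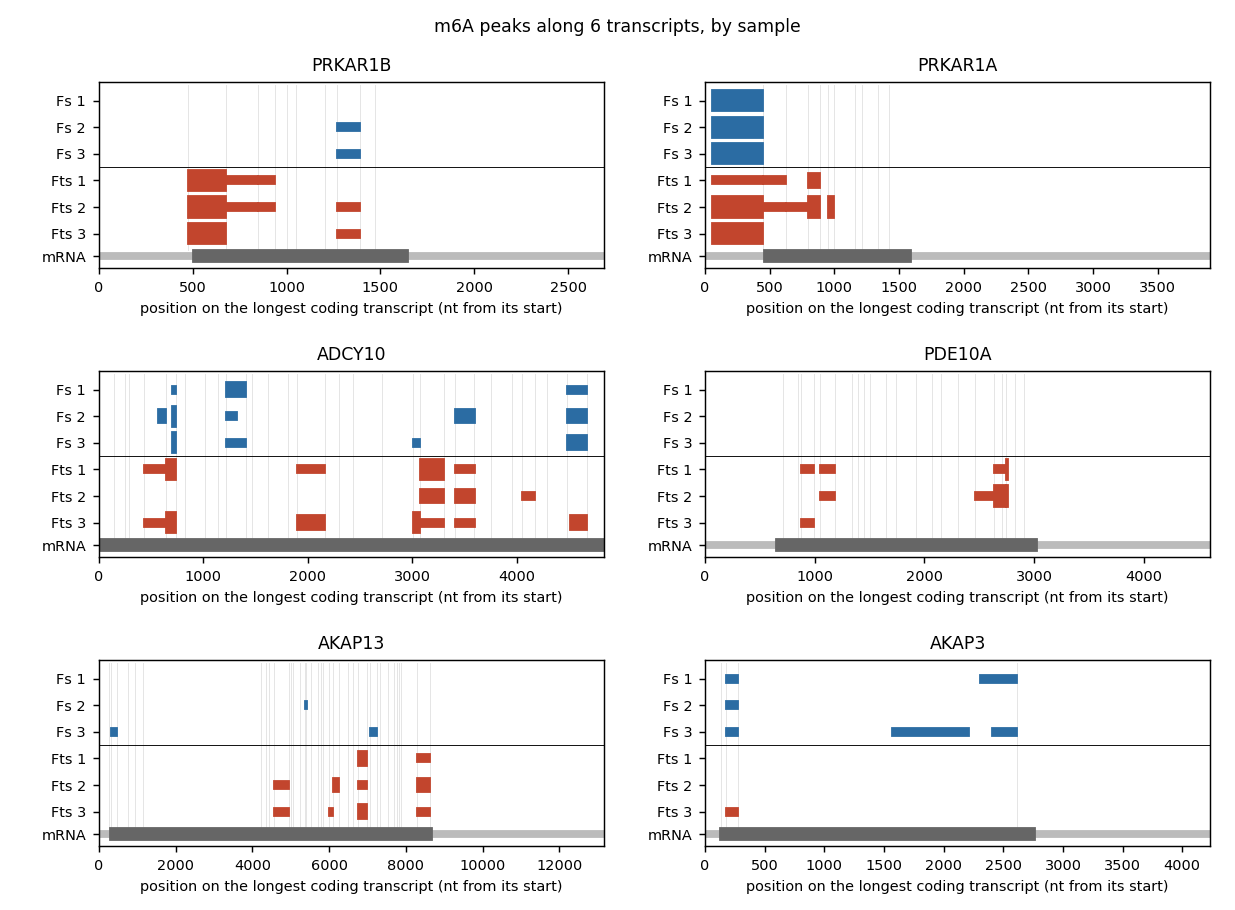
Bars show m6A peaks of each Fs (blue) and Fts (red) sample by position on the longest coding transcript, in nt from its start, for 6 genes. Bar height marks a score below 20 (thin), 20 to 50 (middle) or at least 50 (full), the dark box is the coding sequence and pale lines are exon ends. PRKAR1B exon 2 and the AKAP13 pair of regions hold bars in the 3 Fts samples only, PRKAR1A exon 1 in all 6, and AKAP3 exon 3 in the 3 Fs samples and Fts 3.

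Among phosphodiesterases, PDE10A, which breaks down both cAMP and cGMP, had no peak in Fs and 4, 4 and 1 in Fts. The groups did not overlap (difference 3 ± 1.73, two-sided exact sign-flip test, p = 0.25, and exact permutation test, p = 0.1). None of its 5 regions lay in all 3 Fts samples. Fts 1 and Fts 2 shared a run on exons 19 to 21, with scores of 5.68 and 53.8 on exons 19 and 20 and of 77.1 and 163 on the first 13 bases of exon 21. They also shared exon 6, with scores of 6.46 and 6.18. Fts 3 held only a peak on exon 4 with a score of 9.29, and Fts 1 had it too, with 11.99. PDE4D, a cAMP-specific enzyme, had 0, 1 and 0 peaks in Fs and 1, 2 and 1 in Fts (difference 1, two-sided exact sign-flip test, p = 0.25), all with scores of 15.7 or less. PDE4A, of the same cAMP-specific subfamily, had a peak on exon 4 of 15 with scores of 33.0 and 4.43 in Fs 1 and Fs 2, and none in Fts. The paper, by its own comparison of sites, lists PDE4A as more methylated in Fts and its mRNA as higher there. That comparison was not used here, and the difference in direction was not tested.
PDE8B, a cAMP-specific enzyme of high affinity, had 0, 3 and 0 peaks in Fs and 2, 2 and 1 in Fts. The Fs peaks lay on other exons than those of Fts. Exon 13 of 22, a short exon of 77 bp, had scores of 32.1, 44.1 and 64.7 in Fts and no peak in Fs. PDE5A, which breaks down cGMP and is the target of sildenafil, had a peak on exon 13 of 22 in all 6 samples. Its scores of 41.6, 94.8 and 68.4 in Fs lay above those of 25.3, 27.2 and 11.6 in Fts. PDE11A, which accepts both nucleotides, had 1, 2 and 1 peaks in Fs and 2, 0 and 2 in Fts, and its region at the stop codon scored 13.03, 8.85 and 11.5 in Fs and 5.20 in Fts 1.

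Among anchoring proteins, AKAP3 and AKAP4 build the fibrous sheath of the sperm tail. AKAP3, on chromosome 5 from 65788744 to 65816031, had 2, 1 and 3 peaks in Fs and 0, 0 and 1 in Fts. It was higher in Fs in all 3 pairs but touched in range, since Fs 2 and Fts 3 both had 1 (difference -1.67 ± 0.577, two-sided exact sign-flip test, p = 0.25). Exon 3 of 5 scored 5.68, 15.7 and 6.47 in Fs and 18.4 in Fts 3, the highest score of the gene. The other Fs peaks lay on the long exon 4, with scores of 3.08 to 5.65. AKAP4 had no peak in any sample, nor had AKAP11 and AKAP14, a protein of ciliary axonemes. AKAP1, an anchor of the outer mitochondrial membrane, had a peak in Fts 3 alone, with a score of 5.12.
AKAP13, a large scaffold protein, had 0, 1 and 2 peaks in Fs and 2, 4 and 4 in Fts (difference 2.33 ± 0.577, two-sided exact sign-flip test, p = 0.25). Exon 27 of 38 scored 24.3, 7.48 and 20.8 and exon 37 scored 18.3, 34.2 and 7.12 in Fts, with no peak in Fs on either. Its Fs peaks scored at most 7.72 and lay on exons where Fts had none. AKAP8L, a nuclear AKAP relative, had 1, 1 and 1 peaks in Fs, each on another exon, and 1, 2 and 4 in Fts. Its exon 5 scored 4.13, 82.8 and 19.3 in Fts and had no peak in Fs. The annotated AKAP8L mRNA runs on over AKAP8, so the 2 regions on AKAP8 exons, found in Fts only, count for both genes and cannot be assigned.
AKAP9, a scaffold of the centrosome and Golgi, had 1, 3 and 3 peaks in Fs and 2, 2 and 5 in Fts. Exon 9 of 51 held a peak in all 6 samples, with scores of 96.1, 86.7 and 7.37 in Fs and 67.6, 35.0 and 21.8 in Fts. AKAP17A, linked to splicing, had a peak on exon 3 in all 6 samples, with scores of 6.41, 12.8 and 11.99 in Fs and 9.95, 21.6 and 12.4 in Fts. It lies on an unplaced scaffold. AKAP2 had a single long region on its last exon. It scored 119 in Fs 1, 83.0 in Fs 3 and 104, 81.4 and 81.9 in Fts, and had no peak in Fs 2. The peaks of Fs 1 and Fs 3 began at nt 2747 and 2741 of the transcript, before the coding sequence ends at nt 2839, and those of Fts began in the 3'UTR at nt 3125, 3181 and 3277.

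The other 35 members had at most 8 peaks over the 6 samples. Of the 26 with a peak, 10 had none with a p-value of 0.05 or less, and 4 had a score of at least 50, ADCY1, AKAP6, AKAP17B and PDE2A. No peak was found for ADCY3, ADCY7, ADCY9, AKAP10, PDE6B, PDE6D, PDE6G, PDE9A and PRKACB. With AKAP4, AKAP11 and AKAP14, this made 12 of 57 genes. A peak in 1 sample was found for AKAP5, AKAP17B, PDE6A, PDE7A and PDE7B. In 2 samples it was ADCY2, ADCY4, ADCY5, ADCY6, AKAP7, AKAP8, PDE1A and PDE4B. In 3 it was AKAP12, PDE3A and PDE8A. In 4 it was PDE1B, PDE1C, PDE2A, PDE6C and PRKAR2B. In 5 samples it was ADCY1, AKAP6, PDE3B, PDE4C and PDE6H. Those with a peak in all 6 samples were ADCY10, AKAP8L, AKAP9, AKAP17A, PDE5A and PRKAR1A, 10.5% of 57 against 7.65% of all genes.

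Member peaks lay mostly in coding sequence. They were placed by their midpoint on the longest coding transcript, with the start and stop codon classes reaching 100 nt to each side. Peaks with a midpoint off its exons, 2, 2 and 2 in Fs and 3, 7 and 5 in Fts, were left out. Of the placed member peaks 84.6% ± 2.75 were in CDS in Fs and 80.8% ± 4.02 in Fts. The values by sample were 87.0%, 81.6% and 85.3% in Fs and 80.0%, 77.3% and 85.2% in Fts, and the groups overlapped. Over all genes CDS held 72.2% ± 0.624 in Fs and 76.4% ± 0.474 in Fts, and there each Fts sample exceeded all Fs samples. The 3'UTR held 6.72% ± 3.54 and 8.54% ± 3.24 of the placed member peaks, and the 5'UTR 3.31% ± 0.915 and 3.80% ± 1.70, mainly the PRKAR1A exon 1 peak. Of 119 placed member regions 82 (68.9%) covered a whole exon, and of all placed regions 59.5% did.

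GGACT was searched on the mRNA strand in windows of 100 nt on the spliced transcript around the midpoint of each region. Of 118 member windows 5 (4.24%) held it, and of 23513 windows of all regions 10.02%. Its reverse complement, AGTCC, searched for comparison, was in 11 member windows (9.32%) and in 8.20% of all. None of the 16 member windows of regions with a score of at least 50 held GGACT or AGTCC, against 9.82% and 8.0% of all such windows. The windows do not cover whole regions. Among the exons printed above GGACT occurs in PRKAR1B exon 2 and AKAP3 exon 3. In PRKAR1B exon 2, with scores of 118 to 274, it lies inside the peak but outside the window. This describes the letters in these windows and was not tested.

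Beyond the 57 genes, 45 genes of the wider pathway were listed, with earlier results of these data known. Of these, 44 are in the annotation and 32 had a peak, while 56.6% of all genes had one. More peaks in Fts in all 3 pairs were found for 7 of the 44 (15.9%, with 6.10% of all genes) and more in Fs for 1 (2.27%, with 3.88%). Since the list was not chosen blind, its distance from these backgrounds was not tested. At a score of at least 50 only CREBBP and EZR met the rule, both with more in Fts (4.55%, with 2.35% of all genes). Upstream of the cyclases, GNAS, the stimulatory G protein alpha subunit, had 1, 0 and 0 peaks in Fs and 3, 3 and 4 in Fts. Downstream, the acetyltransferases EP300 and CREBBP, partners of the cAMP-response factor CREB, had 0, 0 and 0 against 5, 9 and 5 and 0, 0 and 1 against 4, 3 and 4. CRTC2, another CREB partner, was the gene with more in Fs, with 3, 3 and 3 peaks in Fs and 1, 2 and 1 in Fts, and no longer met the rule with joined peaks. Other anchoring proteins with more in Fts were EZR (2, 0 and 0 against 5, 4 and 3), MYRIP (2, 1 and 2 against 5, 7 and 7), NBEA (1, 1 and 2 against 2, 6 and 3) and ACBD3 (1, 1 and 0 against 2, 3 and 2). No gene in the groups of kinase inhibitors (PKIA, PKIB, PKIG) and of other cAMP effectors (RAPGEF3, RAPGEF4, BVES, POPDC2, POPDC3) met the rule in either direction with all peaks. By region, RAPGEF3, PKIG, GNAI2 and CRTC2 each had 1 in all 3 Fs and no Fts sample. Regions in all 3 Fts and no Fs sample lay in EP300 (4), MYRIP (3), GNAS and EZR (2 each), and CREBBP, ARFGEF2 and ACBD3 (1 each). Over all mRNA genes these patterns made up 3.63% and 6.82% of regions, and the shares in this list were not computed.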

How the data were processed

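The authors trimmed reads with cutadapt (v1.9.3), aligned them with HISAT2 to Sscrofa11.1 (susScr11), called peaks with MACS in each IP sample against its input and kept peaks on mRNAs. The value used here is the deposited MACS score of each peak, 10 times -log10 p, which the authors computed per sample. It is not normalized between samples, and the lowest deposited score is 3.02. The series' list of differential sites holds the authors' own comparison and was not used. No reads or expression values were analysed here.

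Peaks were placed on the RefSeq annotation (Release 106), whose chromosome names and lengths matched all peaks. Genes were given each peak that shared 1 bp or more with any of their mRNA exons in the same orientation, and 84.4% to 90.1% of the peaks of a sample did. Features were read at the peak midpoint on the longest coding transcript. Sequences are from the same RefSeq genome. Following the paired design stated in the study's methods, Fs and Fts samples of equal number were compared as pairs, by direction and two-sided exact sign-flip tests, and unpaired by exact permutation tests. The members and lists were chosen with earlier results of these data known. Values by sample are given for members with the same direction in all 3 pairs, with a region in all 6 samples or in 3 of a group and 0 of the other, with a score of at least 50 in 3 or more samples, and for ADCY10, PRKACA, PRKAR1A, PRKAR2A, AKAP1, AKAP3, AKAP4, AKAP11, AKAP14, PDE4A, PDE10A and PDE11A. This named 22 members. The wider pathway was described by the first of these rules and by regions in 3 samples of a group and 0 of the other. Alternatives were score minimums of 20 and 50, peaks joined across junctions, 8015 peaks per sample, other overlap rules, codon classes of 200 nt and leaving out each sample. Python 3.11.15, numpy 2.4.6, pysam 0.24.0 and matplotlib 3.10.9 were used, and the code was tested on simulated peak lists.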

Additional observations from a re-analysis of the deposited data

How the results depend on the processing

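The replicate numbers did not show themselves to pair the samples. Deviations of peak counts from the group mean over 11705 genes correlated at -0.0143 to 0.0129 between samples of equal number, and Fs 1 correlated best with Fts 2 (0.0250). Without the replicate block, 3 in place of 5 members had more peaks in Fts and 0 in place of 1 in Fs. With a score of at least 20 the difference in member peaks was 7.33, with at least 50 it was 3, and with 8015 peaks of highest score per sample 10.3. The members with more peaks in Fts in all 3 pairs fell to 1 at a score of at least 50 (2.35% of all genes), and those with more in Fs to 0 (0.948%), or were 2 with introns included (4.03%). Regions in 3 Fts and no Fs sample were 2 at a score of at least 20, 1 at 50 and 3 with equal numbers (8.51%, 9.55% and 6.60% of all regions). Regions in 3 Fs and no Fts sample were 0 at 50 and 2 with equal numbers (3.6% and 4.62%), and those in all 6 samples 0 at both scores (3.10% and 2.60%). The CDS share of Fts minus Fs turned from -3.79 to 1.06 percentage points with codon classes of 200 nt, and the difference for AKAP9 turned from 0.667 to -0.333 peaks at a score of at least 50 and ranged from -0.333 (without Fts replicate 3) to 1.17 when a sample was left out. Leaving out a sample gave differences of 13 to 21.3 peaks and 0.667 to 4.83 genes. Since it leaves 2 pairs, members with more peaks were 7 to 11 in Fts (11 without sample 1 or 2 of either group, 7 without sample 3, with 8.65% to 9.48% of all genes) and 2 to 5 in Fs (5 without sample 1 or 3, 2 without sample 2, with 6.33% to 7.82%). Regions in all Fts and no Fs samples were 7 to 16 (11, 16 and 15 without Fts replicate 1, 2 and 3, with 7.77% to 13.1% of all regions), and those in all Fs and no Fts samples 1 to 5 (5, 2 and 3 without Fs replicate 1, 2 and 3, and 3, 1 and 4 without the Fts ones, with 4.55% to 7.86%). Of the 286 values of the 22 named members under an alternative, 260 stayed within the SD of the pair differences, 24 moved by that or more and those 2 reversed. Some of these values could not move. AKAP4, AKAP11 and AKAP14 had no peak, and leaving out the replicate block does not alter a mean difference. A wide SD also hides change, as for ADCY10 (SD 2.65), which went from 1 to 0 with joined peaks. The 260 are thus no measure of robustness. Regions in all samples were 4 to 6 (4.09% to 4.62%) and the CDS difference -5.97 to -2.02 points. Counting only peaks on exons of a single gene, added after the data were seen, moved no count by over 1.5 times. The cause of these changes was not tested. The paper reports fewer mapped IP reads for each Fts sample than for any Fs sample. Peaks were called against input, and there it reports fewer mapped reads for Fts 1 and Fts 2 than for any Fs sample. The mapped input reads of Fts 3 lay within the Fs range. The mapped share of input reads was lower in each Fts sample than in any Fs sample. Depth was not taken into account here, so a missing peak need not be a missing mark.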

Other observations

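Some members outside the rule for named genes had a region that recurred, and they were chosen here after their values were seen. PDE6C, the cone phosphodiesterase of the retina, had a peak on exon 3 of 23 with scores of 31.0, 31.8 and 36.9 in Fs and 3.78 in Fts 1 only. PDE1B, a calmodulin-dependent phosphodiesterase, had a peak on exon 3 of 16 with scores of 5.77, 15.3 and 36.8 in Fs and 4.11 in Fts 3 only. ADCY1, a calmodulin-stimulated cyclase, had its single region on exon 3 of 20, with scores of 80.2, 59.6 and 35.3 in Fs, above the 4.18 of Fts 1 and the 33.7 of Fts 3, and no peak in Fts 2. PDE2A, which cGMP stimulates, had scores of 43.4, 37.4 and 96.0 in Fts and 39.3 in Fs 3, above that of Fts 2. Its region lay at the 5'UTR of a transcript other than the longest coding form. PDE6H, an inhibitory subunit of the cone enzyme, had a peak on exon 2 in 5 samples, with scores of 10.5 and 5.46 in Fs and 9.84, 27.5 and 14.6 in Fts. In all, 5 of the 128 member regions lay in 3 Fs and 1 Fts sample, and 2 lay in 1 Fs and 3 Fts samples. The same shares over all regions were not computed, so these counts show no trait of the members.

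In Fts 2 AKAP17B exon 6 of 7 scored 136.55, with 4.03 on exon 5, and no other sample had a peak on the gene.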
